A study of Mus musculus with 12 samples.

Results

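The proteasome genes described here were the protein-coding genes whose symbols begin with Psma to Psmg followed by a number, by the GENCODE M21 gene type, and they numbered 50 of the 41091 gene IDs counted in every library. By role they comprised 8 alpha ring genes, 7 constitutive beta ring genes, 4 immuno- and thymoproteasome beta genes, 6 ATPases and 11 other subunits of the regulatory particle, 3 chaperones that assemble the regulatory particle, 4 that assemble the core, 5 activator genes, 1 inhibitor and Psmc3ip, a meiotic recombination factor that is no proteasome subunit and matches only by its symbol. A further 4 Psm symbols are annotated as pseudogenes and were left out.

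The RNA came from hippocampal slices cut from C57BL/6 wild-type animals 2 to 3 months old, and the slices had their dentate gyrus trimmed off and recovered for 2 hr before treatment. LTP slices received 50 µM forskolin for 5 min and then 5 min of forskolin with 30 mM KCl and 10 mM calcium, a chemical protocol for long-term potentiation (LTP), while control slices spent 10 min in 0.2% DMSO. Collection at 1 hr or at 3 hr made 4 groups, control and LTP at each time, with 3 libraries a group, each from an animal that gave both the LTP and the control slices of its time point. The 1 hr control replicate 2, which the study set aside as an outlier of its clustering, stayed out of every mean and test here unless it is named, so that 11 of 12 libraries were fitted and the 1 hr control had n = 2. Animals are numbered 1 to 3 at both times, and the labels do not say whether a number stands for the same animal at 1 hr and 3 hr, so a comparison of 3 hr with 1 hr may hold differences between animals.

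The proteasome is the main protease of the cytosol and nucleus. Its core is a barrel of alpha rings, which gate the entry, around beta rings, which hold the catalytic sites, and its regulatory particle recognises ubiquitin chains, removes them and uses an ATPase ring to unfold the substrate and feed it in. In neurons, proteasome activity at synapses is known to be needed for lasting forms of synaptic plasticity, and interferon is known to replace the catalytic beta subunits with those of the immunoproteasome, which serves antigen presentation.

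Total counts ran from 37118382 to 50815001 per library. The slices showed the markers of hippocampal tissue, with a summed level of 5 neuronal marker genes of 4218 to 5564 CPM, the read count scaled to a fixed library size, over the fitted libraries, and markers of dentate granule cells were still present at 112 to 213 CPM for 3 genes. Between 1 hr and 3 hr the summed level of 5 microglial markers fell from 156 to 157 CPM in the 1 hr controls to 99.6 to 112 CPM in the 3 hr controls, and 4 of the 5 genes passed the test in that direction. The same test called 16.8% of all genes lower between the controls. In bulk tissue, fewer cells of a type and less RNA per cell cannot be told apart.

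Most proteasome genes were abundant, and their messages together made up 2867 to 3419 CPM of a library. Levels of different genes are compared per length, as the mean CPM per kilobase (kb) of exonic sequence in the 3 hr control (n = 3). The study describes gene expression from reads in coding regions, and whether the counts used here are limited to them is not known, so levels per kb of coding sequence are given beside those that differ most. Within the core, the 14 constitutive subunits lay within 2.51-fold of each other. Psmb4, a beta subunit without proteolytic activity, was the highest at 55.1 ± 1.70 CPM per kb (SD) and stood above all others without overlap. Psmb2, Psmb6, Psmb5, Psma5 and Psma6 followed at 41.9 to 44.8, and neighbours in that order overlapped between libraries. Psmb7, Psma4 and Psma3 came next at 32.2 ± 1.87, 31.8 ± 2.27 and 27.9 ± 1.68, each overlapping its neighbour among these 3 genes. Psma2 was the lowest at 22.0 ± 1.55, in a last run of 5 genes with Psma1, Psmb3, Psma7 and Psmb1 whose neighbours overlapped. With coding length in place of exonic length the core genes lay within 2.90-fold, but their order changed and Psma3 led with 142 CPM per kb of coding sequence.

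In the regulatory particle, the ATPases ranged from Psmc5 at 76.7 ± 2.10 CPM per kb to Psmc2 at 21.4 ± 1.54. The non-ATPase subunits ranged from Psmd2, a large scaffold of the base that binds ubiquitin-like domains, at 63.7 ± 2.07 to Psmd11, a lid subunit, at 7.02 ± 0.147. With coding length the highest of these became Psmc3 at 108 and Psmd14, the deubiquitinase of the lid, at 101 CPM per kb, and the lowest ATPase became Psmc4 at 70.2. The assembly chaperones of the regulatory particle ran from Psmd5 at 7.29 ± 0.437 to Psmd9 at 3.40 ± 0.0178, and those of the core from Psmg4 at 8.32 ± 0.588 to Psmg3 at 0.935 ± 0.0981. Per coding length Psmd9 was at 33.1, near Psmd5 at 34.9, and Psmd10 was the lowest of its set at 14.6. The core chaperones lay closer together by that measure, from Psmg4 at 12.5 to Psmg3 at 7.39. Among activators, Psme3, the nuclear activator, was the highest at 20.8 ± 0.273. The inhibitor Psmf1 lay at 4.05 ± 0.120, or 32.1 per kb of coding sequence, and Psmc3ip at 1.08 ± 0.154.

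**Figure D1:**
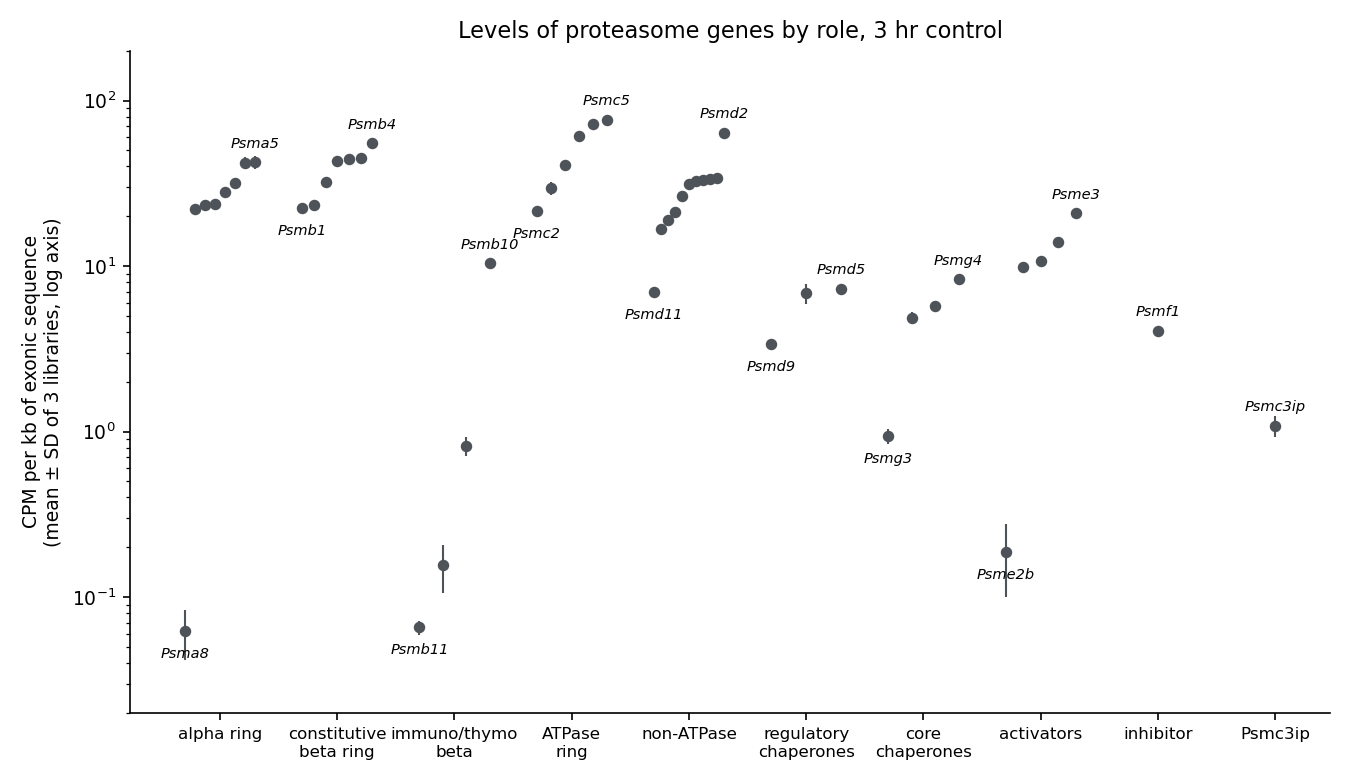
Mean level of each of the 50 genes in the 3 hr control, in CPM per kb of exonic sequence on a log axis, grouped by role, with bars for the SD of 3 libraries and the highest and lowest gene of each role named. Constitutive core and regulatory subunits sit between 7.02 and 76.7, while Psma8, Psmb9, Psmb11 and Psme2b lie at 0.188 or less.

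The tissue-restricted forms were nearly absent. Psma8, the alpha subunit of the testis proteasome, had 3 to 20 counts per library, Psmb11, the thymus-specific beta subunit, had 3 to 28, and Psme2b, a gene nearly identical to the activator Psme2, had 4 to 18. Psme2 and Psme2b share a stretch of 794 bases at 99.4% identity, so reads may be split between them. These were also the members at the edge of the filter on low counts. Psme2b was not tested for LTP at 1 hr, and Psma8 and Psme2b were not tested for LTP at 3 hr, leaving 49 and 48 genes. All 50 were tested in the model of the 4 groups that compares the times.

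The immunoproteasome subunits were uneven. Per length, Psmb9, the immune counterpart of Psmb6, reached 0.348% ± 0.106 of Psmb6 in the 3 hr control (SD, n = 3), and Psmb8, the counterpart of Psmb5, reached 1.90% ± 0.177 of Psmb5. Psmb10, the counterpart of Psmb7, reached 32.4% ± 2.51 of Psmb7, a share far above those of the other two. Per coding length the shares were 0.718% ± 0.219 for Psmb9, 6.85% ± 0.638 for Psmb8 and 16.4% ± 1.27 for Psmb10, in the same order. Psmb9 shares 5.79% of its exonic sequence with Tap1, the peptide transporter gene on the opposite strand, and Psmb8 shares 14.7% with another annotated gene.

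The first question was whether LTP changed these genes. At 1 hr none of the 49 tested passed the test of edgeR, which required a fold change over 1.2 and an adjusted p under 0.1, against 0.789% of all 17736 genes tested, and DESeq2 also called none. At an unadjusted p under 0.05 there were 3, beside 6.71% of all genes, and with no filter on low counts beyond 1 count Psmb11 was called lower. The fold changes were small, with 43 of 49 below 0 against 50.3% of all genes and a median log2 fold change of -0.067 against -0.001. The groups did not overlap in 17 genes, against 22.6% of all genes, and LTP was the lower group in 14 of them. Between 38 of 49 and 44 of 50 genes were below 0 under each other scaling, filter and design tried with no further library left out. The summed level of 3 endothelial markers was also lower after LTP at 1 hr, at 64.7 to 66.4 CPM against 75.5 to 82.5 CPM, and its part in these differences was not tested.

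The smallest p of a higher gene at 1 hr belonged to Psme4, an activator that caps the core and degrades proteins without ubiquitin. Psme4 (ENSMUSG00000040850, chr11:30771726-30880361, plus strand, GRCm38) was at 112 and 114 CPM in the 1 hr controls and at 129, 141 and 123 CPM in the 1 hr LTP slices. The groups did not overlap, and the log2 fold change of 0.22 ± 0.0747 (SE) had an adjusted p of 0.448. The smallest p of a lower gene belonged to Psmb11, which was at 0.723 and 0.426 CPM in the controls and at 0.170, 0.105 and 0.188 CPM after LTP. Its log2 fold change was -1.85 ± 0.502 with an adjusted p of 0.210, on 4 to 28 counts per fitted 1 hr library.

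At 3 hr, 4 of 48 proteasome genes passed the test, or 8.33% against 6.60% of all 17508 genes tested. Psme4 was higher and Psmb5, Psmc2 and Psmb10 were lower after LTP, and 44 genes did not pass. Across all genes 5.07% were called higher, beside 1 of 48 here, and 1.53% lower, beside 3 of 48. Small differences below 0 were common, with 42 of 48 log2 fold changes below 0 against 50.5% of all genes, and with a median of -0.154 against -0.002. The groups did not overlap in 20 genes, against 27.0% of all genes, and LTP was the lower group in 18 of them. Under the other scalings, filters and designs with all libraries, 41 of 47 to 44 of 50 genes were below 0. The calls leaned on single libraries. The count was 0 without 3 hr control replicate 2, 1 without 3 hr control replicate 1, 3 hr control replicate 3 or 3 hr LTP replicate 1, while it was 8 without the second and 6 without the third replicate of 3 hr LTP.

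Psme4 was at 123, 112 and 116 CPM in the 3 hr controls and at 143, 160 and 143 CPM in the 3 hr LTP slices. Every LTP library was above every control, and in each animal the LTP slices were higher, by a log2 ratio of 0.21, 0.51 and 0.30. The log2 fold change was 0.36 ± 0.0671, or 1.28-fold, with an adjusted p of 0.027. The call was lost without 3 hr control replicate 2 or 3, with a log2 fold change of 0.31 to 0.39 over the alternatives. No other activator was called. Psme3 was at 61.4, 60.4 and 62.1 CPM in controls and 58.4, 58.3 and 68.0 CPM after LTP, which overlap. Psme1 and Psme2, which form the interferon-inducible activator ring, had log2 fold changes of -0.17 ± 0.0715 and -0.24 ± 0.0773 with adjusted p of 0.223 and 0.125.

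Psmb5 carries the chymotrypsin-like site, the most used of the proteolytic sites and the target of bortezomib. Psmb5 (ENSMUSG00000022193, chr14:54614119-54618022, minus strand) was at 37.4, 40.4 and 38.0 CPM in the 3 hr controls and at 30.8, 28.6 and 30.6 CPM in the 3 hr LTP slices. The groups were well apart, and the log2 fold change was -0.35 ± 0.070 with an adjusted p of 0.0326. At 1 hr the controls had been at 25.9 and 24.6 CPM and the LTP slices at 22.9, 19.4 and 25.6 CPM, which overlap. Psmb5 shares 12.1% of its exonic sequence with the microRNA gene Mir686, which overlaps it. Gm3375, an annotated copy with no row in the counts used here, matches Psmb5 over 796 bases at 98.9% identity, so reads may map to both. The Psmb5 call at 3 hr was lost without 3 hr LTP replicate 1 or any of the 3 controls, with a log2 fold change of -0.38 to -0.31 over the alternatives.

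The other constitutive catalytic subunits did not pass. Psmb6, with the caspase-like site, was at 81.2, 83.7 and 85.6 CPM in the 3 hr controls and 72.1, 78.4 and 69.6 CPM after LTP, without overlap, and its log2 fold change of -0.17 ± 0.064 had an adjusted p of 0.172. Psmb7, with the trypsin-like site, was at 115, 112 and 103 CPM in controls and at 88.6, 108 and 86.4 CPM after LTP, which overlap, with -0.21 ± 0.0898 and an adjusted p of 0.230. At 1 hr Psmb6 was at 97.7 and 99.5 CPM in controls and 93.9, 82.2 and 99.4 CPM after LTP, and Psmb7 was at 111 and 108 CPM in controls and 101, 101 and 110 CPM after LTP.

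Of the immunoproteasome genes, Psmb10 passed. Psmb10 (ENSMUSG00000031897, chr8:105935735-105938444, minus strand) was at 17.0, 19.4 and 17.0 CPM in the 3 hr controls and at 12.8, 14.2 and 15.3 CPM after LTP. The groups did not overlap, and the log2 fold change was -0.33 ± 0.0923 with an adjusted p of 0.093, a call lost without 3 hr LTP replicate 1 or any of the 3 controls. Psmb8 was at 2.4, 3.11 and 2.80 CPM in controls and 2.50, 1.98 and 2.77 CPM after LTP, and Psmb9 at 0.368, 0.719 and 0.623 CPM in controls and 0.363, 0.659 and 0.712 CPM after LTP. In both of these genes the groups overlapped. At 1 hr Psmb10 was at 12.2 and 16.2 CPM in controls and 13.4, 11.2 and 16.0 CPM after LTP, Psmb8 at 1.58 and 2.04 CPM in controls and 1.77, 1.63 and 1.86 CPM after LTP, and Psmb9 at 0.594 and 0.450 CPM in controls and 0.340, 0.185 and 0.517 CPM after LTP. None of the 12 interferon and antigen presentation genes read beside them was called for LTP at either time.

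Psmc2 is an ATPase of the ring that unfolds substrates. Psmc2 (ENSMUSG00000028932, chr5:21785283-21803787, plus strand) was at 115, 108 and 99.7 CPM in the 3 hr controls and at 87.5, 88.9 and 86.7 CPM after LTP, with little spread between the LTP libraries. Its log2 fold change was -0.28 ± 0.0645 with an adjusted p of 0.0513, a call lost without 3 hr LTP replicate 1 or 3 hr control replicate 1 or 2. The other 5 ATPases lay between -0.19 and -0.05, and Psmc5 had an adjusted p of 0.093 at -0.19 ± 0.0539, under the fold minimum. In 4 of the 6 ATPases the groups did not overlap, all lower, beside 27.0% of all genes in either direction. No alpha ring subunit and no non-ATPase subunit of the lid and base passed. All 7 tested alpha genes were between -0.18 and -0.05, and 10 of 11 non-ATPase subunits were below 0. Psmd11, the exception, was at 44.9, 45.7 and 43.8 CPM in controls and 51.7, 48.8 and 53.6 CPM after LTP, with 0.21 ± 0.0639 and an adjusted p of 0.111. Psmd11 has a transcribed copy, A730017L22Rik, that matches it over 1501 bases at 97.9% identity, so reads may be split between them. The copy held 49.7% of the mean count of Psmd11.

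Summed over the 14 constitutive core subunits, the 3 hr LTP libraries held 928.3, 1044 and 869.4 CPM and the 3 hr controls 1100, 1086 and 1009 CPM. The LTP replicate 2 overlapped control replicate 3, while in each animal the LTP slices held less than the control slices of the same animal. The sum of the 6 ATPases was 611.2, 667.6 and 591.8 CPM after LTP and 734.4, 709.2 and 671.7 CPM in controls, without overlap. The sum of the 11 non-ATPase subunits of the lid and base was 1003, 1050 and 1016 CPM after LTP and 1159, 1132 and 1102 CPM in controls, without overlap. For the core assembly chaperones no gene was called and no groups were without overlap. The highest log2 fold change of the 4 was 0.08, for Psmg1, and the lowest was -0.19, for Psmg3.

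**Figure D2:**
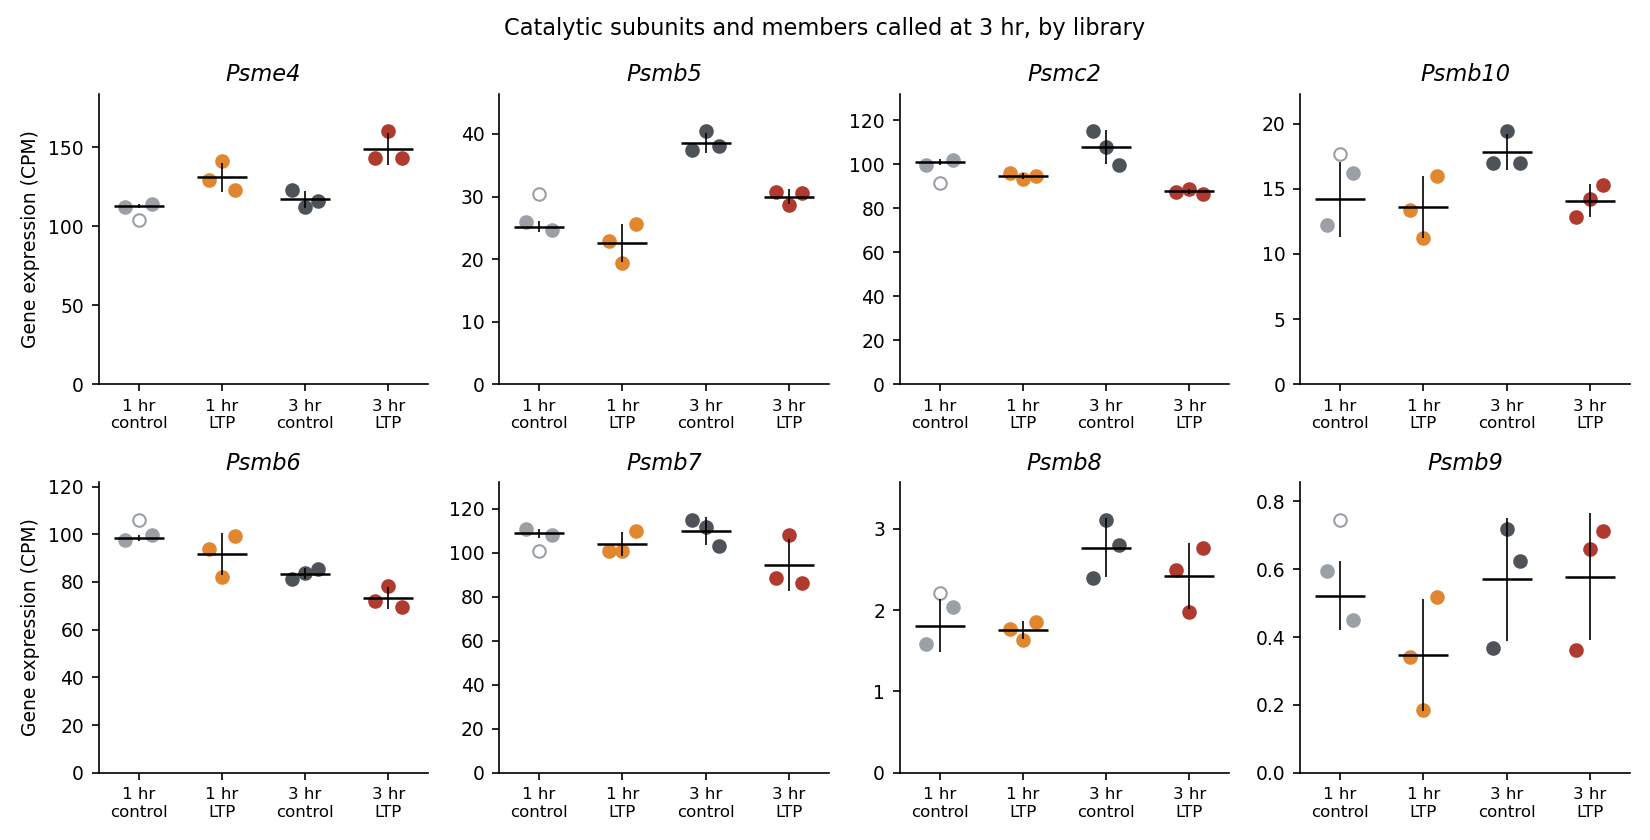
Gene expression in CPM for the 4 genes called at 3 hr and the remaining catalytic subunits and their immune counterparts, with a point per library, a line for the mean and a bar for the SD. The open circle is the 1 hr control replicate 2, which is not in the mean. Psme4 is higher and Psmb5, Psmc2 and Psmb10 are lower in all 3 hr LTP libraries than in all 3 hr controls.

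**Figure D3:**
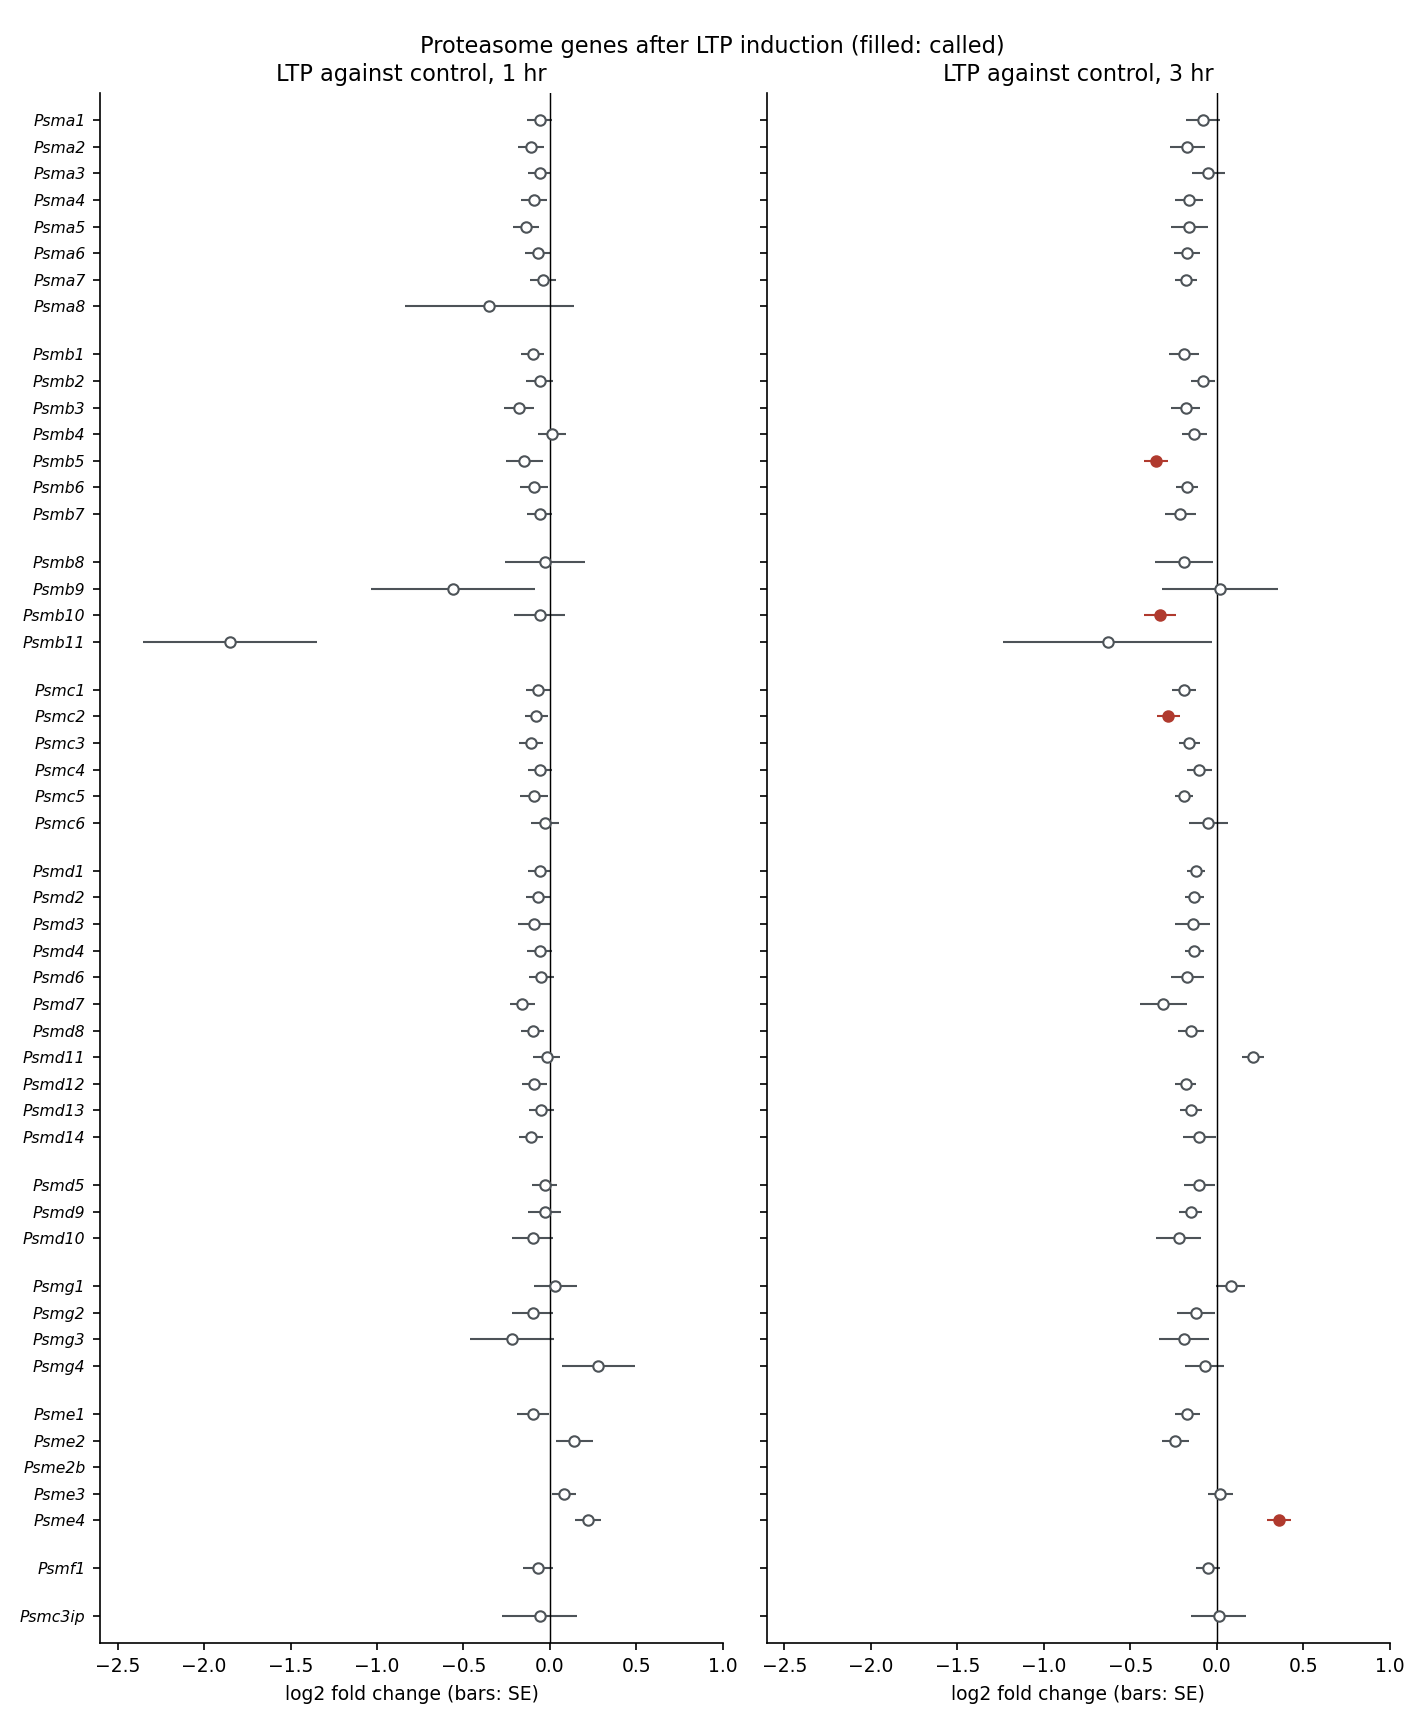
Log2 fold change of LTP against control at 1 hr and at 3 hr for each tested gene, in blocks by role, with bars for the SE and filled points for called genes. No gene is called at 1 hr, and 4 are called at 3 hr. The points lie below 0 for 43 of 49 genes at 1 hr and 42 of 48 at 3 hr.

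The sequences before the starts of the 4 genes called at 3 hr are shown because these genes differed in direction. Each is 120 bases long, from RefSeq on GRCm38.p6, written along the gene and ending before the more upstream of the RefSeq and GENCODE starts. Capitals mark TGACNNNGC, the core of the antioxidant response element that the proteasome gene regulator Nfe2l1 is known to bind, and TGACG, the core of the cAMP response element, on either strand. The 5 letters of TGACG can fall within the 9 of TGACNNNGC.
Psme4 (chr11:30771606-30771725, plus strand): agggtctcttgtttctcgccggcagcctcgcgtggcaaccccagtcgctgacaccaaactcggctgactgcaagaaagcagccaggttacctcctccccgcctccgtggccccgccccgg
Psmb5 (chr14:54618023-54618142, minus strand): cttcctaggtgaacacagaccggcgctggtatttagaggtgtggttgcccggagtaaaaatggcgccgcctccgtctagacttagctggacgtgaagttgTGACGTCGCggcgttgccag
Psmc2 (chr5:21785155-21785274, plus strand): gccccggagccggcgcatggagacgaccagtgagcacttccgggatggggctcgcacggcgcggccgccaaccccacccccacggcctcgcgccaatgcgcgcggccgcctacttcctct
Psmb10 (chr8:105938445-105938564, minus strand): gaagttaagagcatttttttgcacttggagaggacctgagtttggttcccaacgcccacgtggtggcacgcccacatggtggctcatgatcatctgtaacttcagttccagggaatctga

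In Psmb5 both motifs start 47 bases before the RefSeq start. In Psme4 both straddle it, from 7 bases before to 2 bases after for TGACNNNGC, and so lie outside the printed stretch. Neither motif is in the printed windows of Psmc2 and Psmb10. A second RefSeq start of Psmc2, 1464 bases downstream of the GENCODE start, has TGACG 83 bases before it. Among the 42 proteasome genes with a RefSeq promoter of 250 bases before to 50 after the start, 6 held TGACNNNGC, or 14.3% against 14% of 27025 genes. TGACG was in 19 of 42, or 45.2% against 23.0%. The palindrome TGACGTCA was in none against 2.03%, CCAAT in 35.7% against 41.1%, and GAAANNGAA, the core of the interferon-stimulated response element, in 16.7% against 9.76%. In the bases before the start alone GAAANNGAA was in 7.14% against 8.18% and TGACG in 38.1% against 19.8%. A match describes the letters in the window and no binding was measured.

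No proteasome gene had an LTP effect that differed between 3 hr and 1 hr by the interaction test, against 0.0592% of 18584 genes. DESeq2 called none as well, and 3 of 50 had a p under 0.05 before adjustment, beside 6.59% of all genes. Psmd11 and Psme2 had the lowest p among upward and downward differences. The effects differed by 0.24 ± 0.0941 on the log2 scale for Psmd11, with an adjusted p of 0.672, and by -0.38 ± 0.125 for Psme2, with an adjusted p of 0.546. The calls at 3 hr are not shown to differ from the effects at 1 hr.

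The second question was how these genes moved between the time points in slices without LTP. In the controls, 17 of 50 passed the test, or 34.0% against 32.8% of all 18584 genes. There were 9 higher at 3 hr, against 16.1% of all genes, and 8 lower, against 16.8%. The median log2 fold change of the 50 was -0.038 against -0.019. With scaling to total counts both medians shifted, to 0.001 against 0.021, and with a filter of 10 counts in every library they were 0.004 against 0.014. In this fit the share of proteasome genes called was close to the background in each direction, but the split leaned on single libraries. Without 1 hr control replicate 3 the lower calls of Psma3, Psma8, Psmb6, Psmc1, Psmc6 and Psmd8 and the higher call of Psmd3 were lost. Without 1 hr control replicate 1 the total called was 11.

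Of the 14 constitutive core subunits 2 were called higher, 3 lower and 9 not at all. Psmb4 rose from 64.4 and 71.5 CPM in the 1 hr controls to 110, 109 and 104 CPM in the 3 hr controls, a log2 fold change of 0.63 ± 0.0845 with an adjusted p of 0.000202. Psmb5 rose from 25.9 and 24.6 CPM to 37.4, 40.4 and 38.0 CPM, or 0.59 ± 0.102 with an adjusted p of 0.00103. Against these, Psma4 fell from 107 and 113 CPM to 79.6, 77.0 and 69.2 CPM, or -0.58 ± 0.0839 with an adjusted p of 0.000334. In all 3 genes the groups were far apart, and in opposite directions for subunits of the same barrel. Psmb6 fell by 0.27 with an adjusted p of 0.0201, a change at the fold minimum that was lost under 16 of 19 alternatives. Psma3 fell from 129 and 137 CPM to 115, 109 and 102 CPM, with -0.32 ± 0.0907 and an adjusted p of 0.0156. That call was lost without 1 hr control replicate 3 or 3 hr control replicate 3, when 1 hr control replicate 2 was included, and when offsets for GC content and length were fitted.

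In the activators the pair that forms a shared ring moved apart. Psme1 fell from 34.2 and 34.0 CPM to 23.9, 24.4 and 23.2 CPM, or -0.55 ± 0.0905 with an adjusted p of 0.000755. Psme2 rose from 12.9 and 12.8 CPM to 18.3, 17.5 and 16.1 CPM, or 0.40 ± 0.0934 with an adjusted p of 0.00608. Their sum was 47.13 and 46.83 CPM at 1 hr and 42.28, 41.90 and 39.33 CPM at 3 hr. Among the ATPases Psmc6 fell from 133 and 142 CPM to 113, 104 and 94.5 CPM, with -0.43 ± 0.115 and an adjusted p of 0.0116, and Psmc1 fell by 0.29 with an adjusted p of 0.0087. Both calls were lost without 1 hr control replicate 3 and when offsets for GC content and length were fitted, and that of Psmc1 also without 3 hr control replicate 3, with 1 hr control replicate 2 included, with total counts and with 10 counts required in every library.

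Psmb8 rose from 1.58 and 2.04 CPM to 2.4, 3.11 and 2.80 CPM, or 0.59 ± 0.197 with an adjusted p of 0.037. The call was lost without 1 hr control replicate 1 or 3 hr control replicate 2. Psmb10 was higher without overlap, at 0.29 ± 0.149, and did not pass, with an adjusted p of 0.150. Psmb9 did not pass either, at 0.10 ± 0.421. Beside them, 10 of the 12 interferon and antigen presentation genes passed the test as higher at 3 hr and 1 as lower, among them Tap1 at 1.2 with an adjusted p of 0.000179, Irf1 at 1.03 with 0.000336 and Nlrc5 at 1.58 with 0.00236. The lower gene was B2m, at -0.72 with an adjusted p of 8.66e-05. Over all genes 16.1% were called higher and 16.8% lower. The summed level of the 12 genes was 228 to 244 CPM in the 1 hr controls and 261 to 296 CPM in the 3 hr controls. The fall of the microglial markers stands beside these changes, and its part in them was not tested.

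The chaperones of the core that passed were both higher. Psmg4 went from 2.38 and 4.10 CPM to 4.95, 4.59 and 4.30 CPM, with 0.48 ± 0.186 and an adjusted p of 0.0671. Psmg3 went from 1.55 and 2.30 CPM to 2.64, 2.46 and 3.02 CPM, with 0.46 ± 0.195 and an adjusted p of 0.0886. The 2 controls of 1 hr differed widely in both genes, and leaving out 1 hr control replicate 1 or 3 hr control replicate 1 ended both calls. That of Psmg4 was also lost without 3 hr control replicate 2, and that of Psmg3 without 3 hr control replicate 3, with 1 hr control replicate 2 included, with DESeq2 and with GC content and length offsets. Psma8 fell by 1.27 with an adjusted p of 0.0477, on 10 and 20 counts at 1 hr and 8, 9 and 5 counts at 3 hr, and lost its call without 1 hr control replicate 3 or 3 hr control replicate 3 and with DESeq2.

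In the LTP slices, 16 of 50 genes passed between 1 hr and 3 hr, or 32.0% against 35.9% of all genes, with 5 higher against 18.6% and 11 lower against 17.3%. Without a fold minimum there were 26, against 45.1% of all genes. With GC content and length offsets the split was 7 higher and 8 lower, and without 1 hr LTP replicate 3 it was 7 and 6. The comparisons in controls and in LTP slices use different libraries of the same animals. Of the 20 genes called in either, 13 were called in both, or 76.5% of the calls in controls and 81.2% of those in LTP slices, beside 71.2% and 65.1% over all genes, and all 13 had the same sign, 5 higher and 8 lower. Psmb4 rose from 66.7, 63.6 and 73.0 CPM to 96.0, 106 and 89.4 CPM, with 0.50 ± 0.0746 and an adjusted p of 0.000271. Psmb5 rose by 0.39 ± 0.0907 with an adjusted p of 0.00477, Psmg3 by 0.50 ± 0.178 with 0.0396, Psmb8 by 0.44 ± 0.178 with 0.0689 and Psmd3, a lid subunit, by 0.33 ± 0.103 with 0.0211. Of these, Psmb8 lost its call without 1 hr LTP replicate 1 or 2 or 3 hr LTP replicate 1 or 3 and with GC content and length offsets, Psmd3 without 3 hr LTP replicate 3 and with those offsets, and Psmg3 without 3 hr LTP replicate 2.

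Psma4 had the smallest p of the 50, falling from 96.1, 110 and 102 CPM to 64.4, 72.8 and 62.5 CPM, with -0.65 ± 0.0763 and an adjusted p of 6.32e-05. Psme1 fell from 27.9, 34.2 and 32.6 CPM to 20.0, 22.2 and 20.7 CPM, with -0.61 ± 0.0826 and an adjusted p of 0.000153. Psmc6 fell by 0.45 with an adjusted p of 0.00441, Psmc1 by 0.40 with 0.000522 and the scarce Psma8 by 1.39 with 0.0314. The call of Psmc6 was lost with GC content and length offsets, and that of Psma8 without 1 hr LTP replicate 3 or 3 hr LTP replicate 3. Psme2 was not called, at 0.02 ± 0.0832, and its groups overlapped. The median of the 50 was -0.101 against 0.000 for all genes, and it moved to 0.003 against -0.007 when offsets for GC content and length were fitted. Across the 50 genes the change between times rose with GC content, with a Spearman correlation of 0.36 in controls and 0.33 in LTP slices. Over all genes with an annotation these were 0.42 and 0.40, and the genes of each comparison share its libraries.

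**Figure D4:**
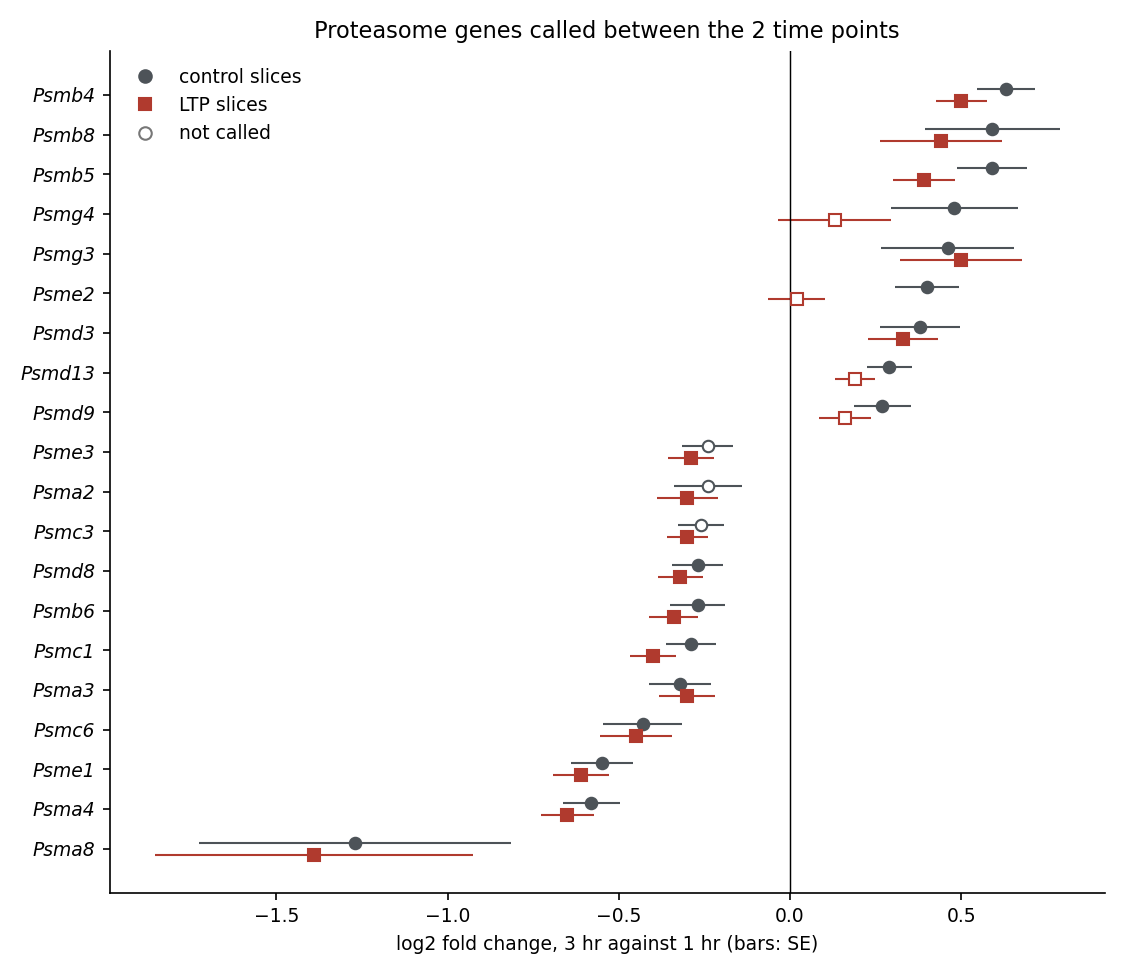
Log2 fold change of 3 hr against 1 hr for the 20 genes called in control slices (circles) or LTP slices (squares), with bars for the SE and open symbols where a gene was not called. Psmb4, Psmb5 and Psmb8 lie above 0 and Psma4, Psme1 and Psmc6 below 0 in both kinds of slice, while Psme2 and Psmg4 are called in the controls alone.

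Beyond the Psm genes, 29 partner genes of the pathway were read from the same fits. At 1 hr 1 of 29 was called after LTP, or 3.45% against 0.789% of all genes. That call was lost when 1 hr control replicate 2 was included, and without 1 hr LTP replicate 1 or 2 or 1 hr control replicate 1 or 3. At 3 hr 2 were called, or 6.9% against 6.60% of all genes. Pomp, the chaperone that matures the core, was at 66.6, 67.9 and 61.5 CPM in controls and 52.9, 52.1 and 51.4 CPM after LTP, with -0.31 ± 0.0618 and an adjusted p of 0.0321. Ubqln2, a shuttle that brings ubiquitinated proteins to the proteasome, was at 66.2, 69.5 and 67.7 CPM in controls and 86.6, 80.0 and 108 CPM after LTP, with 0.45 ± 0.104 and an adjusted p of 0.055. Both genes were without overlap between the groups. Both calls were lost without 3 hr control replicate 1, 3 hr control replicate 2 or 3 hr LTP replicate 1, and 1 partner gene was called without 3 hr control replicate 3.

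The regulators of subunit gene transcription and their processing enzymes, Nfe2l1, Nfe2l2, Ddi2 and Ngly1, were called in none of the comparisons, with log2 fold changes of -0.12 to 0.03 for LTP at 3 hr. Between the times 4 partners were called in controls, or 13.8% against 32.8% of all genes, and 8 in LTP slices, or 27.6% against 35.9%. Sem1, a small lid subunit, fell by 0.59 in controls with an adjusted p of 0.000292 and by 0.73 in LTP slices with 3.06e-05. Rad23b, a shuttle, fell by 0.32 with 0.0043 and by 0.42 with 0.000322. Fbxo7, which binds the inhibitor Psmf1, rose by 0.36 with 0.00359 and by 0.27 with 0.00685. The calls made in LTP slices and not in controls were Ubqln2 at 0.50 with 0.0015, Nploc4 at 0.33 with 0.00104, the ubiquitin receptor Adrm1 at 0.27 with 0.0358, and the deubiquitinase Uchl5 at -0.32 with 0.00899. Whether these differ from the controls was tested by the interaction, which called none of the 29.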

How the data were processed

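Per the labels and the study's methods, the authors made stranded total RNA libraries after ribosomal RNA removal, aligned the reads with STAR to GRCm38 (mm10) and deposited raw read counts per gene for each time point. Whether counting used strand is not given in the sources used here. Differences were tested with edgeR 4.0.16 (R 4.3.3; TMM scaling, filterByExpr, quasi-likelihood F test, Benjamini-Hochberg adjustment over all genes tested), and DESeq2 1.42.0 served as an alternative. Calls required both a fold change above 1.2 and an adjusted p below 0.1, and for the interaction only the latter. LTP was tested within a time point and the times in a model of the 4 groups. Symbols, types and lengths came from GENCODE M21, promoters from RefSeq (GRCm38.p6; 42 of 50 genes matched), and near-identical copies from blastn 2.17.0+. CPM are counts scaled by the TMM-adjusted library total. The genes named are the catalytic subunits and their immune counterparts, the called genes (the 5 largest changes in each direction where over 10 were called), the smallest p in each comparison and direction, the highest and lowest level of each role, and the genes left out by the filter on low counts. Psmc5, Psme1, Psme2, Psme3, Psmg1 and Psmg3 at 3 hr after LTP, Psmc1, Psme2 and Psmb10 between controls, and partner genes that were not called were named after their values were seen. The members and lists were chosen with earlier results of these data known. Same-numbered slices come from the same animal. Their deviations correlated by -0.134 to 0.0741 over animals at 1 hr and by -0.0384 to 0.194 at 3 hr. The fits were also run on simulated data, with larger fold changes than those of the proteasome genes called for LTP, and the outcome is not reported here. P-values measure the spread between 2 or 3 animals per group. The values of some called partner genes are not reported here.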

Additional observations from a re-analysis of the deposited data

Results flagged for a closer look

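Psme2, a subunit of the interferon-inducible activator ring, was singled out because its LTP slices were higher than control in every animal at 1 hr and lower in every animal at 3 hr, which may be the same or other animals. At 1 hr the LTP slices were higher than the control slices of their own animal in all 3 animals, by log2 ratios of 0.03, 0.10 and 0.10, with 1 hr control replicate 2 included. At 3 hr they were lower in all 3, by -0.33, -0.23 and -0.20. These ratios are the values that picked the gene, so they add no support. The share of all genes with such a change of sign was not counted. The difference between the fitted effects was -0.38 ± 0.125 on the log2 scale, and the interaction test of edgeR gave an adjusted p of 0.546, so it did not pass over all genes. Over the alternatives the difference ran from -0.44 to -0.30 with an adjusted p of 0.282 to 0.999. Psme2 shares near-identical sequence with Psme2b.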

How the results depend on the processing

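No called gene, and no gene with the smallest p of a comparison, reversed its direction under the alternatives run, and of their 1078 values 950 held their direction and their side of the threshold. Relative to the median of all genes, that of the 50 genes stayed 0.020 lower between controls with total counts, and between LTP slices it went from -0.101 to 0.010 with GC and length offsets. With the replicate block (animal as a term), 0 genes were called for LTP at 1 hr and 4 at 3 hr, as without it, and it changed the call of none of the proteasome genes tested this way. With no filter beyond 1 count, 1 gene was called at 1 hr. Leaving out each library in turn gave 0 to 8 calls at 3 hr, 11 to 17 between controls and 12 to 21 between LTP slices. Without a fold minimum there were 26 between LTP slices, and 9 partner genes between controls. The single partner call at 1 hr became 0 with 1 hr control replicate 2 included, with the block and that library together, with total counts and with upper-quartile scaling, and 0 to 1 when libraries were left out, and the 2 partner calls at 3 hr became 0 to 3. The 2.51-fold range of core levels was 3.28-fold with the longest transcript and 2.90-fold with coding length, the latter chosen after seeing the data, as was the block with 1 hr control replicate 2. The share of promoters with the response element rose from 14.3% to 57.1% with the looser TGANNNNGC, against 45% of all genes, by its construction. Other causes were not tested. Genes of few counts (Psma8, Psmb9, Psmb11, Psme2b) are limited by depth, and 2 libraries in the 1 hr control limit every comparison that uses them.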

Other observations

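No marker of neurons, astrocytes, microglia, oligodendrocytes, endothelium or hippocampal subfields was called for LTP at either time. All 3 endothelial markers were lower after LTP at 1 hr without overlap, at log2 fold changes of -0.37 for Cldn5, -0.24 for Flt1 and -0.20 for Pecam1 with adjusted p of 0.263, 0.445 and 0.699, and their summed level was 64.7 to 66.4 CPM against 75.5 to 82.5 CPM in controls. Between 1 hr and 3 hr, 2 of 4 oligodendrocyte markers were higher in controls, with a summed level of 4226 to 5148 CPM at 1 hr and 5786 to 7114 CPM at 3 hr, 2 of 3 CA1 markers were higher, and 2 of 5 neuronal and 2 of 3 endothelial markers were lower, among them Pecam1 at -0.37 with an adjusted p of 0.00319 and Flt1 at -0.32 with 0.045. Of 3 CA3 markers 1 was higher and 1 lower. Over all genes 16.1% were called higher and 16.8% lower between the controls, and each marker list holds few genes. Of the 4 astrocyte markers none was called in any comparison. The summed level of the microglial markers in LTP slices was 138 to 154 CPM at 1 hr and 98.0 to 102 CPM at 3 hr.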
